A study of Homo sapiens with 11 samples.

Results

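SNRPA, HNRNPC, PABPN1, LSM1 and RPRD2 encode proteins that handle messenger RNA, from transcription and splicing to polyadenylation and decay. These 5 genes, of 19974 protein-coding genes examined, were followed through 5 lists of CUT&RUN peaks from HEK293T cells. In CUT&RUN, a nuclease tethered to an antibody releases the DNA around the antibody's target in permeabilised cells, and this DNA is sequenced. The genes were chosen by their measured values: SNRPA and HNRNPC had high fold enrichment in all 3 lists made with an antibody to a tagged or endogenous myc protein, and LSM1, RPRD2 and PABPN1 had high fold enrichment in 1 list and no region in another. Presence in a list, fold enrichment and rank are therefore given as description, with no test.

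All 11 libraries came from HEK293T, a line derived from human embryonic kidney in which the SV40 T antigen is expressed. The labels name 3 libraries edit_myc_FLAG, 3 myc_FLAG and 3 endog_myc, and 1 library each of mouse IgG (ms_IgG) and rabbit IgG (rbt_IgG). The design text states antibodies to FLAG, to myc and a control IgG. The protocols give a mouse antibody for FLAG and a rabbit antibody for myc. The labels do not say what "edit" stands for, how the tagged protein was expressed, or whether a group is 1 clone. The edit_myc_FLAG, myc_FLAG and endog_myc lists (the target lists) each stand for 3 libraries together, so no value below has a spread between replicates, and read depth is unknown.

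MYC is a transcription factor that pairs with MAX and binds E-boxes, mostly near the starts of genes. E-boxes are short sequences (CANNTG, N being any base) whose canonical form is the palindrome CACGTG. Genes for RNA processing are transcribed in nearly all dividing cells. In splicing, small nuclear ribonucleoproteins recognise the ends of introns while hnRNP proteins coat the transcript. The transcript is then cleaved and polyadenylated, and in the cytoplasm decapping opens it to decay.

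A region was placed at a gene when its summit, the position of strongest signal, lay within 1000 bp of an end of the gene's RefSeq span on hg38. The 5 genes had 10 such regions in the target lists and 0 in the IgG lists. In edit_myc_FLAG 3 of the 5 genes had a region, where 4.27% of all protein-coding genes did. In myc_FLAG 3 of 5 had one (all genes, 1.65%) and in endog_myc 4 of 5 (all genes, 1.80%). The mouse IgG list had a region at 0.0200% of all genes and the rabbit IgG list at 0.0851%. As the genes were chosen for their regions, nothing is read from these counts.

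The sequences before the starts of 4 of the genes are shown because the summits fell in or beside them. They are the 250 bases before the RefSeq start, 5′ to 3′ on the gene's own strand, from the RefSeq promoter table for GRCh38.p14. Capitals mark every CCAAT or its reverse complement ATTGG, every CANNTG (which includes CACGTG) and every CACGCG or its reverse complement CGCGTG. The window of SNRPA was chr19:40750953-40751202 (plus strand), that of HNRNPC chr14:21269443-21269692 (minus strand), that of PABPN1 chr14:23321207-23321456 (plus strand) and that of RPRD2 chr1:150363897-150364146 (plus strand). ACTMAP, which faces SNRPA across a short gap, is shown for the same reason (chr19:40750478-40750727, minus strand).
SNRPA: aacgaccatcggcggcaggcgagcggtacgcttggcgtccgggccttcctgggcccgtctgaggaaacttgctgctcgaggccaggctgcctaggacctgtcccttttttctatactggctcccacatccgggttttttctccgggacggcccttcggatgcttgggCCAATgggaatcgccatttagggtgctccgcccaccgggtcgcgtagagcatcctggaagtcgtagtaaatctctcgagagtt
HNRNPC: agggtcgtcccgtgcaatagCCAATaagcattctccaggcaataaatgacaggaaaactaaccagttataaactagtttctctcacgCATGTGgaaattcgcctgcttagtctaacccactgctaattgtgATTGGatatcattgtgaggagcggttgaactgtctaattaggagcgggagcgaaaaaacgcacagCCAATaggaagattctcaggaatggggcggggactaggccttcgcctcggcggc
PABPN1: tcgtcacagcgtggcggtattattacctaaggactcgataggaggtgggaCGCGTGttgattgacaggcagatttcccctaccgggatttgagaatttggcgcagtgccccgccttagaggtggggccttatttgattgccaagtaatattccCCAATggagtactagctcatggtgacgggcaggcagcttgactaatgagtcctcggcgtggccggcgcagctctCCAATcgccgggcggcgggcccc
RPRD2: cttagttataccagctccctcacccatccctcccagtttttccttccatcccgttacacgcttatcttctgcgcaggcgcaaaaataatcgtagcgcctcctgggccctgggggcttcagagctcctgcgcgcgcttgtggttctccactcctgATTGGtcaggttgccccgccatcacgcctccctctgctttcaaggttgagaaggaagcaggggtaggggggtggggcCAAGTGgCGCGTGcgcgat
ACTMAP: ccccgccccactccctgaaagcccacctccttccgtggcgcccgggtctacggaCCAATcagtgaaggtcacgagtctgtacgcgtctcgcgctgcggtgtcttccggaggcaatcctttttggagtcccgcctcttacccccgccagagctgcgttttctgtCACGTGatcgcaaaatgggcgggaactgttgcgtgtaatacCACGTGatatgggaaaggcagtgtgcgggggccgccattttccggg

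SNRPA is the gene for protein A of U1, the small nuclear ribonucleoprotein that recognises the 5′ splice site. Its span is 40751203 to 40765389 on chromosome 19, and its region was the strongest of the 5 genes by −log10 q in each target list. The authors' fold was 8.55 in edit_myc_FLAG, 9.78 in myc_FLAG and 9.62 in endog_myc. The −log10 q was 16.9, 23.8 and 22.9 in the same order. By fold the region ranked 236 of 2172, 166 of 1290 and 153 of 1359 in the whole lists, and 25 of 696, 6 of 255 and 7 of 287 among regions at gene ends. The regions ran from 40750635 to 40751108, from 40750686 to 40751111 and from 40750623 to 40751141, and had 423 bp in common. All lay before the start of SNRPA, with summits 241, 215 and 316 bp upstream. ACTMAP, whose span ends 725 bases from that of SNRPA and which is read in the opposite direction, had its start 485, 511 and 410 bp from the same summits. The regions thus lay between 2 starts, and the lists do not say to which gene they belong. Beyond the far end of SNRPA, the target lists also shared a region at RAB4B, 12957, 12930 and 12790 bp from that end, and its folds were 7.36, 4.62 and 6.09.

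HNRNPC encodes the hnRNP C proteins, which bind uridine-rich stretches of nascent transcripts. It spans 21209147 to 21269442 on chromosome 14 on the minus strand, and its regions lay just before its start with no other gene end within 1000 bp. The fold was highest in myc_FLAG at 9.19, with 8.49 in endog_myc and 7.20 in edit_myc_FLAG. The −log10 q followed the same order, at 14.0, 11.0 and 8.13. By fold the myc_FLAG region ranked 188 of 1290 in its list, the endog_myc region 212 of 1359 and the edit_myc_FLAG region 404 of 2172. Among regions at gene ends these ranks were 8 of 255, 18 of 287 and 73 of 696. The regions of edit_myc_FLAG, myc_FLAG and endog_myc were 204, 325 and 289 bp wide and shared 152 bp, from 21269529 to 21269680. The summits lay 121, 199 and 190 bp before the start, so that of edit_myc_FLAG was nearest to the gene.

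PABPN1 encodes the nuclear poly(A)-binding protein, which controls the length of new poly(A) tails. It spans 23321457 to 23326163 on chromosome 14 and had a region in endog_myc alone, from 23321008 to 23321421, with a fold of 7.38 and a −log10 q of 8.45. That fold ranked 322 of 1359 in the list and 47 of 287 among regions at gene ends. The summit lay 86 bp before the start. In edit_myc_FLAG the nearest region was 19417 bp from the gene, had a fold of 5.89 and lay inside PPP1R3E, 819 bp from an end of that gene. The myc_FLAG list had no region within 50000 bp.

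RPRD2 encodes a protein that binds the C-terminal domain of RNA polymerase II. Its span, 150364147 to 150476566 on chromosome 1, had regions before its start in endog_myc and myc_FLAG. In edit_myc_FLAG there was none within 50000 bp of either end, and the middle of the span, farther from both ends, was not examined. The endog_myc fold was 8.76 with a −log10 q of 11.5, rank 191 of 1359 in the list and 12 of 287 at gene ends. The myc_FLAG fold was 4.67 with a −log10 q of 2.56, rank 913 of 1290 and 214 of 255. This was the lowest of the 10 regions on each scale and the only one below the median fold of the regions at gene ends in its list. It overlapped the endog_myc region: the summits lay 146 and 135 bp before the start, 11 bp apart. The lowest −log10 q in the myc_FLAG list was 1.35.

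LSM1 encodes a subunit of the cytoplasmic LSM ring, which binds the 3′ ends of mRNAs about to be decapped. It spans 38163321 to 38176730 on chromosome 8 and had a region in edit_myc_FLAG alone, from 38176531 to 38176798. The fold was 8.74 and the −log10 q 11.0, rank 222 of 2172 in the list and 22 of 696 at gene ends. The summit lay 42 bp inside the span, the only summit of the 10 inside a gene of the set. BAG4, which encodes a chaperone regulator, begins 124 bases beyond that end of LSM1, and its end was 167 bp from the summit. Neither myc_FLAG nor endog_myc had a region within 50000 bp. A gene without a region in a list is not shown to be unbound, since a list ends at the caller's threshold.

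**Figure D1:**
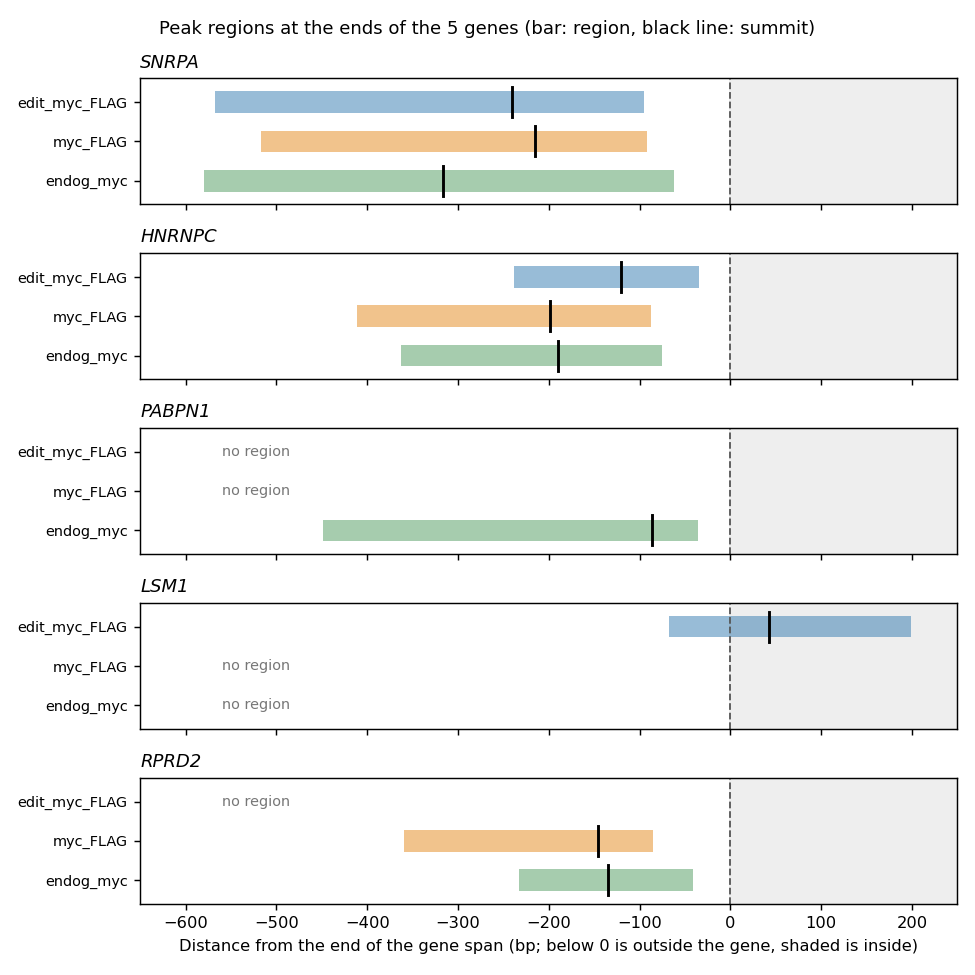
Regions of the 3 target lists at the 5 genes. The x axis gives the distance in bp from the end of the gene span, with values below 0 outside the gene and the inside shaded; coloured bars are regions and black lines their summits. In 9 of 10 regions the summit lies outside the gene, and the LSM1 summit lies 42 bp inside.

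Among the 10 regions the fold ran from 4.67 to 9.78 with a median of 8.64. The median over all regions at gene ends was 5.45 in edit_myc_FLAG, 5.66 in myc_FLAG and 5.81 in endog_myc. By fold the median place was 14.3% from the top of the list, by −log10 q 31.4%, and among regions at gene ends 3.88%. The highest fold anywhere was 44.6 in edit_myc_FLAG, 44.2 in myc_FLAG and 37.6 in endog_myc, but at gene ends it was 13.0, 10.8 and 13.7. None of the 10 regions overlapped an IgG region, and no IgG region lay within 50000 bp of an end of any of the 5 genes. Such overlap was rare at all genes. Without regions overlapping IgG, 4.2% of all genes had a region in edit_myc_FLAG in place of 4.27%. In myc_FLAG the share was 1.59% in place of 1.65%, and in endog_myc 1.73% in place of 1.80%. The lack of overlap is thus not particular to the 5 genes. The distance from summit to gene end ran from 42 to 316 bp, inside the limit of 1000 bp. The nearest regions outside that limit were the one at RAB4B, 12790 bp from SNRPA in endog_myc, and the one 19417 bp from PABPN1 in edit_myc_FLAG.

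**Figure D2:**
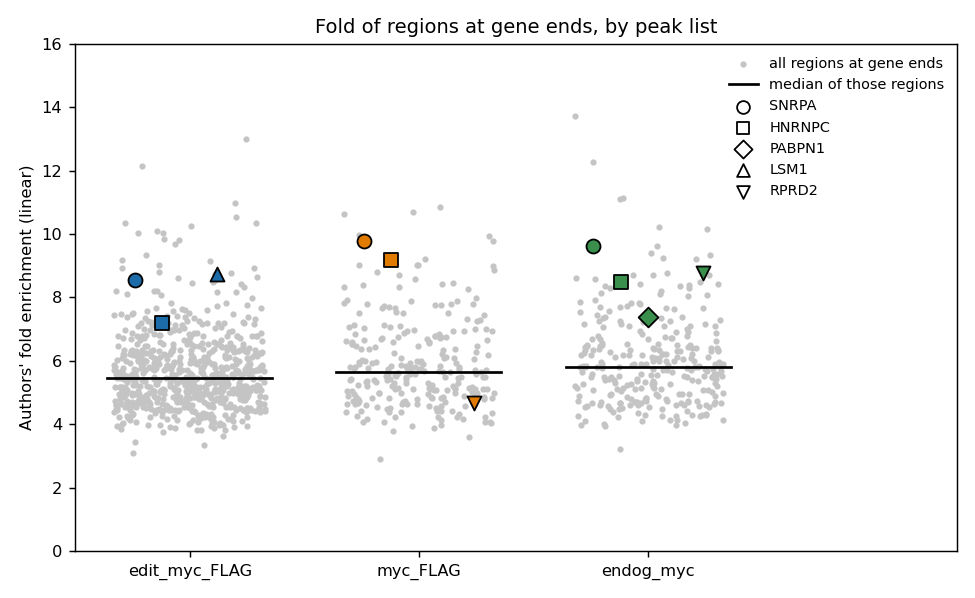
Authors' fold enrichment (linear y axis) of every region at a gene end, by target list (grey points, spread sideways only to be visible), with the median as a black line and the 5 genes as coloured symbols. All symbols but that of RPRD2 in myc_FLAG (4.67) stand above the median of their list.

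Where a gene had regions in several lists, they overlapped. SNRPA and HNRNPC gave 3 overlapping pairs of lists each and RPRD2 1, so 7 in all. At SNRPA the summits were 26 bp apart between edit_myc_FLAG and myc_FLAG, 75 bp between edit_myc_FLAG and endog_myc and 101 bp between myc_FLAG and endog_myc. At HNRNPC these distances were 78, 69 and 9 bp. The medians over all overlapping regions at gene ends were 67 bp (quartiles 28 and 138, 172 pairs), 65 bp (27 and 144, 183 pairs) and 63 bp (21.5 and 125, 135 pairs). The distances at the 3 genes lay inside or below these quartile ranges. The HNRNPC regions of edit_myc_FLAG and myc_FLAG shared 46.8% of the wider region, the smallest share of the 7 pairs, and the SNRPA regions of edit_myc_FLAG and endog_myc 91.3%, the largest. The lists come from the same cell line, so a position shared between them can be shared through anything common to the libraries.

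The 4 sequences differed in which letters they held near the summits. The canonical E-box CACGTG was in none of them. The sequences covered only part of most regions, and the rest was not searched for E-boxes at these genes. At HNRNPC 164 of 325 bp of the myc_FLAG region and 176 of 289 bp of the endog_myc region were covered. At PABPN1 215 of 414 bp of the endog_myc region were covered, and at RPRD2 166 of 275 bp of the myc_FLAG region. The HNRNPC region of edit_myc_FLAG and the RPRD2 region of endog_myc were covered in full. HNRNPC had 1 CANNTG, with the letters CATGTG, that began 163 bases before the start and lay 39, 38 and 29 bp from the summits of edit_myc_FLAG, myc_FLAG and endog_myc. PABPN1 had 1 CGCGTG, 111 bp from its endog_myc summit, and no CANNTG. RPRD2 had a CAAGTG and a CGCGTG side by side, 19 and 12 bases before the start, which lay 118 and 125 bp from the endog_myc summit and outside both its regions. SNRPA had none of these. ACTMAP had CACGTG at 87 and 46 bases before its start, at 40750559 and 40750518 on chromosome 19. Those lay outside the SNRPA regions, and the nearest was 325 bp from the endog_myc summit. The 225 bases between the windows of ACTMAP and SNRPA, which hold the endog_myc summit, were not searched.

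CCAAT, a promoter element known to be bound by the factor NF-Y, was in all 4 sequences, on either strand. HNRNPC held 3 copies, PABPN1 2, and RPRD2 and SNRPA 1 each. The nearest copy lay 4, 29 and 38 bp from the HNRNPC summits of edit_myc_FLAG, myc_FLAG and endog_myc, and 9 bp from the PABPN1 summit. At RPRD2 it lay 52 bp from the myc_FLAG and 41 bp from the endog_myc summit. At SNRPA the nearest copy in the windows of SNRPA and ACTMAP was 160, 134 and 216 bp away, but the bases between these windows, beside or around the summits, were not searched and may hold a nearer one. Over all genes with a summit in the same window of 250 bases and a CCAAT there, the median distance was 30 bp in edit_myc_FLAG (quartiles 11 and 54, 244 summits), 25 bp in myc_FLAG (11 and 54, 121 summits) and 24 bp in endog_myc (9 and 49, 148 summits). The distances at HNRNPC, PABPN1 and RPRD2 lay within or below these quartiles. Those at SNRPA are not compared with them, because of the bases not searched.

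Read against all promoters, CCAAT was common in the windows before starts that had a region nearby, and CACGTG was not. CCAAT was in 34.4% of the 15812 protein-coding genes of the promoter table, with 1 window a gene. Where a region lay within 1000 bp of the start, the edit_myc_FLAG share was 66.6% of 688 genes (95% Wilson interval 63.0 to 70.0). The myc_FLAG share was 79.4% of 272 genes (74.2 to 83.8) and the endog_myc share 79.9% of 293 (74.9 to 84.1). It was also in all 14 such genes of rabbit IgG and all 3 of mouse IgG. CACGTG was in 7.79% of all promoters and in 9.45%, 9.93% and 6.83% of those with a region in the 3 target lists, with intervals that hold 7.79%. CANNTG was in 57.8% of all promoters and in 48.4%, 49.6% and 45.4% of those with a region. CACGCG was in 12.6% of all and in 16.6%, 16.2% and 16.7% of those with a region. The GC box GGGCGG was in 55.8% of all and in 77.3%, 75.4% and 80.2%, and the ETS core CCGGAAG in 11.7% of all and in 11.8%, 7.72% and 10.2%. All were sought on both strands. Only the windows before the starts were searched, while a summit could lie up to 1000 bp from a start. The windows held 327 summits in edit_myc_FLAG, 137 in myc_FLAG and 163 in endog_myc, beside the 688, 272 and 293 genes counted. The shares thus describe the windows, and the parts of the regions outside them were not searched. A match of letters shows neither binding nor its absence.

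The shares of CCAAT and CACGTG, but not those of the other letters, were also taken within bands of GC content. The GC content was 57.6% in PABPN1 and 59.6% in RPRD2, 60.4% in SNRPA and 48.4% in HNRNPC, and the median of all promoters was 62.0%. Between 50% and 60% GC, CCAAT was in 75.4% of the 142 promoters with an edit_myc_FLAG region and in 39.1% of the 3434 without. In the same band it was in 88.4% of 69 with a myc_FLAG region against 39.6% of 3507 without, and in 87.5% of 64 with an endog_myc region against 39.7% of 3512 without. Between 60% and 70% GC the CCAAT shares were 74.4% against 32.7%, 86.0% against 34.0% and 81.1% against 33.9%. For CACGTG the shares between 50% and 60% GC were 7.04% against 7.16%, 7.25% against 7.16% and 6.25% against 7.18%, in the same order of lists. Between 60% and 70% GC they were 9.62% against 9.6%, 11.6% against 9.55% and 4.73% against 9.75%. In the band of HNRNPC, between 40% and 50% GC, CCAAT was in 8 of 15 promoters with an edit_myc_FLAG region, 6 of 8 with a myc_FLAG region and 9 of 12 with an endog_myc region, and in 38.5%, 38.5% and 38.4% of those without. These shares are description, and the part of NF-Y in the regions was not tested.

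A wider list of 176 genes for splicing, hnRNP proteins, polyadenylation, decay and export, which includes the 5, was counted beside all protein-coding genes. The list was written with earlier results of these data known, and no test was made on it. In edit_myc_FLAG 19 of 176 had a region, in myc_FLAG 12 and in endog_myc 10. Without the 5 genes these were 16 of 171 in edit_myc_FLAG (9.36%, interval 5.84 to 14.7, beside 4.27% of all genes), 9 of 171 in myc_FLAG (5.26%, 2.79 to 9.70, beside 1.65%) and 6 of 171 in endog_myc (3.51%, 1.62 to 7.44, beside 1.80%). The endog_myc interval holds the share of all genes. In both IgG lists 0 of 176 had a region, which allows up to 1.70%. The shares of all genes, 0.0200% in mouse IgG and 0.0851% in rabbit IgG, lie below that limit, so a difference from them was not detectable. The median fold of the regions without the 5 genes was 5.62, 4.98 and 6.18, above, below and above the median at all gene ends. Another gene's end lay within 1000 bp of the summit for 8 of the 19 edit_myc_FLAG regions, 5 of 12 in myc_FLAG and 2 of 10 in endog_myc. Of all regions at gene ends, 22.7%, 29.0% and 24.4% had more than 1 gene. The counts and these shares are not like for like. A region at 2 genes has 2 ways into the counts, which also include the 5 genes, but enters the shares only 1 time. No excess is read from them. Of the regions at genes with a known start, 16 of 17, 9 of 10 and 9 of 9 lay within 1000 bp of it. DDX19B, an RNA helicase of export, was the exception, and AARS1 was nearer to its regions.

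**Figure D3:**
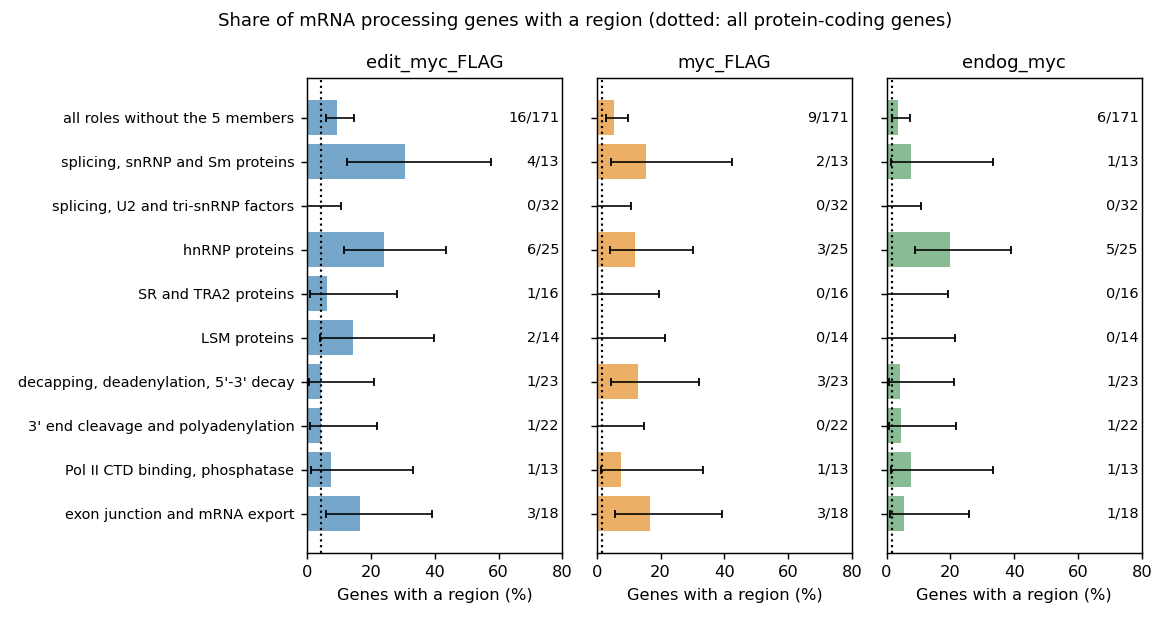
Share of genes with a region at an end (x axis, percent) by role and target list; error bars are 95% Wilson intervals, dotted lines the share of all protein-coding genes, and numbers the genes with a region of all genes in the role. The hnRNP row holds 6, 3 and 5 of 25 genes, and the row of U2 and tri-snRNP factors 0 of 32 in each list.

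Of 13 snRNP and Sm proteins, SNRPA, SNRNP70, SNRPD2 and SNRPF had an edit_myc_FLAG region (30.8%, beside 4.27% of all genes), SNRPA being chosen for its own. SNRNP70, another protein of U1, had a fold of 6.24, SNRPF 5.31, and SNRPD2 5.29 in edit_myc_FLAG and 4.65 in myc_FLAG; the last 2 encode subunits of the Sm ring. Of 32 U2 and tri-snRNP factors, 0 had a region in any list, which allows up to 9.38%. The shares of all genes, 4.27%, 1.65% and 1.80%, lie below that limit, so a difference from them was not detectable. Of 25 hnRNP and related genes, 6 had a region in edit_myc_FLAG (all genes, 4.27%), 3 in myc_FLAG (all genes, 1.65%) and 5 in endog_myc (all genes, 1.80%). HNRNPC, chosen for its regions, is 1 of them in each list. HNRNPA0, an hnRNP that binds AU-rich elements, had regions in every target list (chromosome 5, 137754450 to 137754792 in edit_myc_FLAG). The folds were 10.2, 5.63 and 5.99, and its edit_myc_FLAG fold was above that of any of the 5 genes in that list. HNRNPA1, a regulator of splice site choice, was also in all 3, with 5.59, 4.81 and 6.18, though CBX5 was nearer to the summits of the FLAG lists. HNRNPR had 6.70 in edit_myc_FLAG and 6.21 in endog_myc, and its relative SYNCRIP 5.66 and 5.48. HNRNPUL2 had 5.77 in edit_myc_FLAG. Just outside the limit of 1000 bp, HNRNPL and HNRNPUL1 had regions in all 3 target lists. At HNRNPL these lay 1942, 1941 and 1919 bp from an end with folds of 7.64, 7.44 and 8.28, and at HNRNPUL1 1506, 1657 and 1450 bp with 9.17, 8.83 and 8.36. RBBP6, a polyadenylation cofactor, had an edit_myc_FLAG region at 1395 bp with 6.25. With summits within 2000 bp, 22, 14 and 12 of the 176 genes had a region in edit_myc_FLAG, myc_FLAG and endog_myc. At that limit 4.79%, 1.79% and 2.04% of all genes did. Those counts include the chosen genes, so nothing is read from them.

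The other roles each held at most 3 genes with a region in a list. In edit_myc_FLAG, 1 gene of 16 (6.25%), 23 (4.35%) or 22 (4.55%) is near the 4.27% of all genes. Other shares were higher. For the exon junction complex and export the share was 3 of 18 in edit_myc_FLAG and in myc_FLAG (16.7%, interval 5.84 to 39.2). For decay it was 3 of 23 in myc_FLAG (13.0%, 4.54 to 32.1), where 1.65% of all genes had a region. For LSM proteins it was 2 of 14 in edit_myc_FLAG (14.3%, 4.01 to 39.9, which holds 4.27%), LSM1 being chosen for its own. In myc_FLAG 0 of the SR, LSM and 3′ end genes had a region, which allows up to 18.8%, 21.4% and 13.6%. In endog_myc 0 of the SR and LSM genes had one, with the same limits. The shares of all genes, 1.65% in myc_FLAG and 1.80% in endog_myc, lie below these limits, so a difference from them was not detectable. Of 16 SR and related proteins, SRSF4 was the only one with a region, with 5.55 in edit_myc_FLAG. Of 14 LSM proteins, LSM1 and LSM4, a subunit of both LSM rings (5.75), had an edit_myc_FLAG region. Among 23 genes for deadenylation, decapping and decay, CNOT3, a subunit of the CCR4-NOT deadenylase, had regions in every target list, with 5.16, 7.43 and 8.42 (chromosome 19, 54137213 to 54137593 in edit_myc_FLAG). The CNOT1 scaffold of that complex (4.97) and DCP2, the decapping enzyme (5.93), were in myc_FLAG. Of 22 genes for 3′ end formation, NUDT21, a subunit of cleavage factor I, was in edit_myc_FLAG (5.67), where OGFOD1 was nearer, and PABPN1 in endog_myc. Of 13 genes for binding or dephosphorylating the polymerase's C-terminal domain, CTDSP2, a phosphatase, was in edit_myc_FLAG (4.53), and RPRD2 in the other target lists. Of 18 genes for the exon junction complex and export, DDX39A, an export helicase, was in all 3 (4.42, 4.39 and 6.18). The export adaptor ALYREF had 4.63 and 4.98 in the FLAG lists and DDX19B 7.01 and 7.90. In all, 23 of the 176 genes had a region in a target list, and SNRPA, HNRNPC, HNRNPA0, HNRNPA1, CNOT3 and DDX39A had one in all 3. Without the 5 genes these were 18 of 171 (10.5%, beside 5.31% of all protein-coding genes) and 4 of 171 (2.34%, beside 0.746%).

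**Figure D4:**
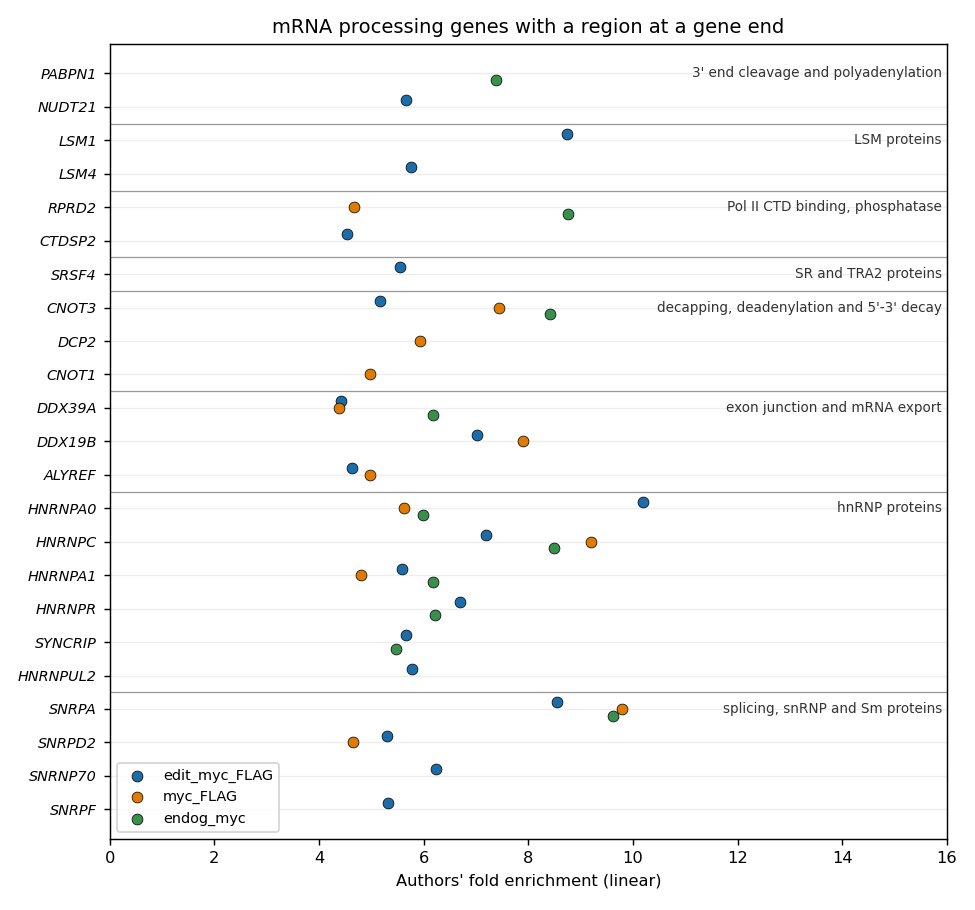
Authors' fold enrichment (linear x axis) of the regions at the 23 genes of the wider list with a region in a target list, grouped by role; colours are the lists and a missing point means no region. HNRNPA0 in edit_myc_FLAG (10.2) has the highest value, and the lowest is DDX39A in myc_FLAG (4.39).

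The same letters were counted before the starts of the wider list. Of the 23 genes with a target region 20 were in the promoter table, and LSM1, HNRNPA1 and CNOT1 were not matched. CCAAT was in 16 of the 20, and in 12 of 16 without the 4 genes shown above (75.0%, 50.5 to 89.8). It was missing at SNRNP70, SRSF4, SYNCRIP and CTDSP2. Of the 136 list genes with no target region it was in 43 (31.6%, 24.4 to 39.8). CACGTG was in 0 of the 20, which allows up to 15.0%, and in 12 of the 136 (8.82%, 5.12 to 14.8). CACGCG was in 7 of the 20 and in 29 of the 136 (21.3%).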

How the data were processed

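CUT&RUN peaks of 11 HEK293T libraries were used as 5 deposited lists, grouped by the titles. The submitters' processing notes name hg38 with HOMER 4.10, MACS3 3.0.0b1, SAMtools 1.15 and Bowtie2 2.4.5. Options, the control library and how libraries were merged are not stated there. The fold (a ratio), the −log10 q and the caller score (10 times the −log10 q, not used) are the authors' deposited values of single peaks. Summits were placed by the deposited offset, positions were counted from 1, and genes came from RefSeq GRCh38.p14 (chromosomes 1 to 22 and X). Named genes are the 5, genes whose ends lie within 1000 bp of their summits, and every gene of the wider list with a region; other names (such as RAB4B, PPP1R3E, AARS1, CBX5 and OGFOD1) were chosen after their values were seen. Members and lists were chosen with earlier results of these data known; genes just outside the limit, GC bands, IgG promoters and CCAAT distances were added after seeing values. Alternatives were other distances, a −log10 q of at least 5, no IgG overlap and equal list length. Intervals are 95% Wilson, an upper limit for 0 is 3 counts, and both cover counting error only. Placement of summits at gene ends was checked on simulated regions. Work was done in Python 3.11.15 with pandas 2.3.3 and numpy 2.4.6.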

Additional observations from a re-analysis of the deposited data

How the results depend on the processing

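The counts of the 5 genes with a region (3, 3 and 4) were the same with summits within 500 or 2000 bp and with any base within 1000 bp. They were also the same without regions overlapping IgG, and with the 1290 regions of highest fold in each target list. The summits lay 42 to 316 bp from an end, so the other distances could not lower these counts. The myc_FLAG list holds 1290 regions in all, so equal list length could not change its count. With a −log10 q of at least 5, RPRD2 left myc_FLAG, which then held 2. Under that setting the wider list had 7 genes in edit_myc_FLAG and 4 in myc_FLAG in place of 19 and 12. In endog_myc it had 9 in place of 10. Of all genes, 1.45%, 0.756% and 0.931% had a region in edit_myc_FLAG, myc_FLAG and endog_myc. The counts of 7, 4 and 9 include 3, 2 and 4 of the 5 genes, which were chosen for their fold. They are therefore not like for like with the shares of all genes. With no such limit on −log10 q, the wider list without the 5 genes had 6 genes in endog_myc, since 4 of its 10 were among the 5. Of the 7 overlapping pairs of lists, 6 overlapped by 50% of each region and 6 had summits within 100 bp. Of 43 alternative values 40 were classed as the same, by a limit of 1.5 times the main count or by the spread of the regions. The median place of the 10 regions is in that class but depended on the scale. It was 14.3% from the top by fold, 31.4% by −log10 q and 3.88% among regions at gene ends. The last lay below the lowest of the 10 places by fold in the whole lists, 10.2%. Depth is unknown, so the absence of a region has no detection limit. No paired analysis was possible because each list stands for its 3 libraries together, and for the same reason no library could be left out in turn.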
